A study of Saccharomyces cerevisiae with 40 samples.

Results

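The 42 genes described here encode the DNA replication fork and its origins in budding yeast. They were taken by name and function from the 6661 transcripts in the files, in a choice made with earlier results of these data known. They comprise the 4 subunits of DNA polymerase alpha-primase (POL1, POL12, PRI1, PRI2), the 4 of polymerase epsilon (POL2, DPB2, DPB3, DPB4), the 3 of polymerase delta (POL3, POL31, POL32), PCNA (POL30), the 5 subunits of its loader RFC (RFC1 to RFC5) and the 3 of RPA (RFA1 to RFA3). The others are the 6 MCM genes (MCM2 to MCM7), CDC45 with the 4 GINS genes (PSF1, PSF2, PSF3, SLD5), the 3 Okazaki fragment enzymes (RAD27, CDC9, DNA2), 4 origin licensing genes (CDC6, TAH11, ORC1, ORC6), 3 origin firing genes (DPB11, SLD2, SLD3) and CTF4. RNA was sequenced from 40 libraries of 2 haploid strains, GSY147, a laboratory strain of the S288c background (S288c here), and RM11, a vineyard isolate, with 5 replicates in each of 8 groups. Each strain was grown to mid-log phase in minimal medium (YM) or in YM with tryptophan, tyrosine and phenylalanine (WYF), and was left untreated or was exposed to the commercial glyphosate formulation Credit 41 (Cr41) for 90 min. The source labels give the dose as 0.25% Cr41, and the paper's results word it as a final glyphosate concentration of 0.25%. Glyphosate blocks the shikimate pathway, from which yeast makes these amino acids, and WYF supplies them. Each strain stands for its background as a single isolate, and nothing in the labels says that the replicates were separate cultures, so the p-values measure only the spread between these libraries.

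Reads of both strains were counted on S288c transcripts, the YM libraries were on sequencing lane 2 and the WYF libraries on lane 3. Medium and lane therefore cannot be told apart in a direct comparison of media. Libraries held from 4224350 to 7866044 estimated counts, and no member was at 0 in any library, where a single member had between 3 and 1695 counts (median 274). Strain labels were checked with 78 Ty retrotransposon ORFs, which took 6.44% to 9.59% of the counts in the S288c libraries and 0.226% to 0.503% in those of RM11. Replicate 5 of RM11 with Cr41 in YM stood apart in the members, which took 0.372% of its counts and at most 0.280% of those of the other replicates of that group. Results in which it moved a call or a count of calls are also given without it. Over all genes it was not the only one. Replicate 4 of S288c with Cr41 in YM had the largest root mean square log2 distance from its other replicates, at 0.650, against 0.471 for the RM11 library. Chi-square per degree of freedom between replicate pairs was 26.9 to 49.4 for replicate 4 of untreated S288c in WYF and 45.9 to 61.6 for the RM11 library. Calls in S288c that were lost without 1 library are named below.

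As background, an origin is licensed in G1 when the origin recognition complex, Cdc6 and Cdt1 (Tah11 in yeast) load the ring of Mcm2 to Mcm7 on DNA. At the start of S phase Sld2, Sld3 and Dpb11 bring Cdc45 and GINS to this ring, which becomes the active helicase. Polymerase alpha-primase starts each strand, polymerase epsilon extends the leading strand, polymerase delta the lagging strand, PCNA clamps them to DNA and RPA covers the exposed single strands. Many genes of fork enzymes are transcribed in late G1 by MBF, the factor of Mbp1 and Swi6 that binds the MluI cell cycle box (MCB), whereas MCM genes and CDC6 are known for transcription between M and G1.

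The letters of the MCB core, ACGCGT, which is its own reverse complement, were looked for in the window from 250 bases before to 50 bases after the start codon of each gene, in the RefSeq sequence and annotation of assembly R64. They were found in 19 of the 42 members (45.2%) and in 184 of all 6001 such windows (3.07%), and 6 members had 2 copies, namely POL1, POL12, RFA1, RFA2, RAD27 and CDC45. The core of the related SBF site, CACGAAA on either strand (the reverse complement being TTTCGTG), was found in 3 members (7.14%), none of which had the MCB core, and in 252 of all windows (4.20%). None of the 6 MCM genes had the MCB core. The windows of 6 members are printed because they cover the cases met in the expression data. POL30 (YBR088C), RAD27 (YKL113C) and CDC45 (YLR103C) had the MCB core and fell most in S288c in YM. RFA3 (YJL173C) fell nearly as far there without it, and had the largest fall of the members in S288c in WYF. MCM2 (YBL023C) was not called with Cr41. PSF2 (YJL072C) was the only member called higher with Cr41, in S288c in YM. Each window lies on the minus strand of R64, at chrII:425717-426016 for POL30, chrXI:225826-226125 for RAD27, chrXII:345892-346191 for CDC45, chrX:96480-96779 for RFA3, chrII:177477-177776 for MCM2 and chrX:305813-306112 for PSF2, and is written 5′ to 3′ along the gene with the MCB core in capitals.
POL30: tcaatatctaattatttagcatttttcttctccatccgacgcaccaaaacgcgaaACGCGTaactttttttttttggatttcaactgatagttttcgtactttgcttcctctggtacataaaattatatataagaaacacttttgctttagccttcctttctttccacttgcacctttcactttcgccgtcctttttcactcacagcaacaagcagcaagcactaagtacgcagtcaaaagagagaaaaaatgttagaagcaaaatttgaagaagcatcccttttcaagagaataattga
RAD27: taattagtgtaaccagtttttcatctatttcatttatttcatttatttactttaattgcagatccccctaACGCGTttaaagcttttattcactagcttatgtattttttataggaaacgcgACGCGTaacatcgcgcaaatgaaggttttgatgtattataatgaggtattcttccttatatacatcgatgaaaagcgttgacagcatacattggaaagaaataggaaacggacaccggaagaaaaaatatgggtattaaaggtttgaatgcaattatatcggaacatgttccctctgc
CDC45: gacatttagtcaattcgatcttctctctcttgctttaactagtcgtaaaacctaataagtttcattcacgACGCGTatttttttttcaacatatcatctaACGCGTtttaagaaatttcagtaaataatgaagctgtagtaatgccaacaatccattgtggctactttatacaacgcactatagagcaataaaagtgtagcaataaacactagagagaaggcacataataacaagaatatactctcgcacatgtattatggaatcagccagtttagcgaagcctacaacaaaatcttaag
RFA3: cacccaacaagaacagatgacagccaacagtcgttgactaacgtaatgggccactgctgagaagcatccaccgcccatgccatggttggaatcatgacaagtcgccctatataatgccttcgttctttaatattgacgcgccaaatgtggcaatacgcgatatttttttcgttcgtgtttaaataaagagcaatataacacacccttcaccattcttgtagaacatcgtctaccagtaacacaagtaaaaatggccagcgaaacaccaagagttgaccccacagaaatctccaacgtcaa
MCM2: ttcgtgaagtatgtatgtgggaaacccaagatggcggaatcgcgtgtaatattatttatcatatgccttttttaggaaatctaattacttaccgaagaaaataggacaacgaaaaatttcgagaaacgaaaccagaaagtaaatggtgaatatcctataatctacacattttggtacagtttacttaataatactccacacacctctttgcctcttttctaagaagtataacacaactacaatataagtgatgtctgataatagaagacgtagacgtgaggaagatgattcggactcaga
PSF2: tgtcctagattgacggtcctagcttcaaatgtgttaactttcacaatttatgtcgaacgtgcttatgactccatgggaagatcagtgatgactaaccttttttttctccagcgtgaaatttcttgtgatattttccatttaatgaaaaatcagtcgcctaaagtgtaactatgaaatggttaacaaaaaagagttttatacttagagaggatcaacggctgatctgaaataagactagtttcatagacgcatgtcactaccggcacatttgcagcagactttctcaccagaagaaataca

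In the POL30 window the MCB core began 195 bases before the start codon. The 2 copies of RAD27 began 180 and 128 bases before it, and those of CDC45 180 and 150 bases before it. A match to these letters describes the sequence only and is not a measured binding site.

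In S288c in YM, many fork genes fell with Cr41. PCNA, the polymerase alpha-primase subunits other than PRI1, all of RPA, RAD27, CDC9 and CDC45 fell between 3.60-fold and 13.5-fold, whereas no MCM gene and none of the 4 licensing genes was called. Levels are given as CPM, counts scaled to a common library size by edgeR's TMM method. A call needed both a change of 1 or more on the log2 scale, up or down, and an adjusted p below 0.05 in edgeR's quasi-likelihood test, with Benjamini-Hochberg adjustment over all genes tested. By this rule 19 of the 42 members fell, against 8.82% of all 5716 genes tested, and 1 member rose, against 11.0%. At the adjusted p alone 30 members were lower, against 34.2% of all genes, and 2 higher, against 33.0%. The median log2 change was -0.80 over the members and -0.00 over all genes. In 28 members every Cr41 library was below every untreated library, which was so of 28.5% of all genes, and in 1 member every Cr41 library was above, which was so of 24.9%. The members together took 0.298% to 0.320% of the counts of the untreated libraries and 0.135% to 0.173% with Cr41. In RNA from a whole culture, fewer cells at a cell cycle stage and less RNA per cell cannot be told apart.

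**Figure D1:**
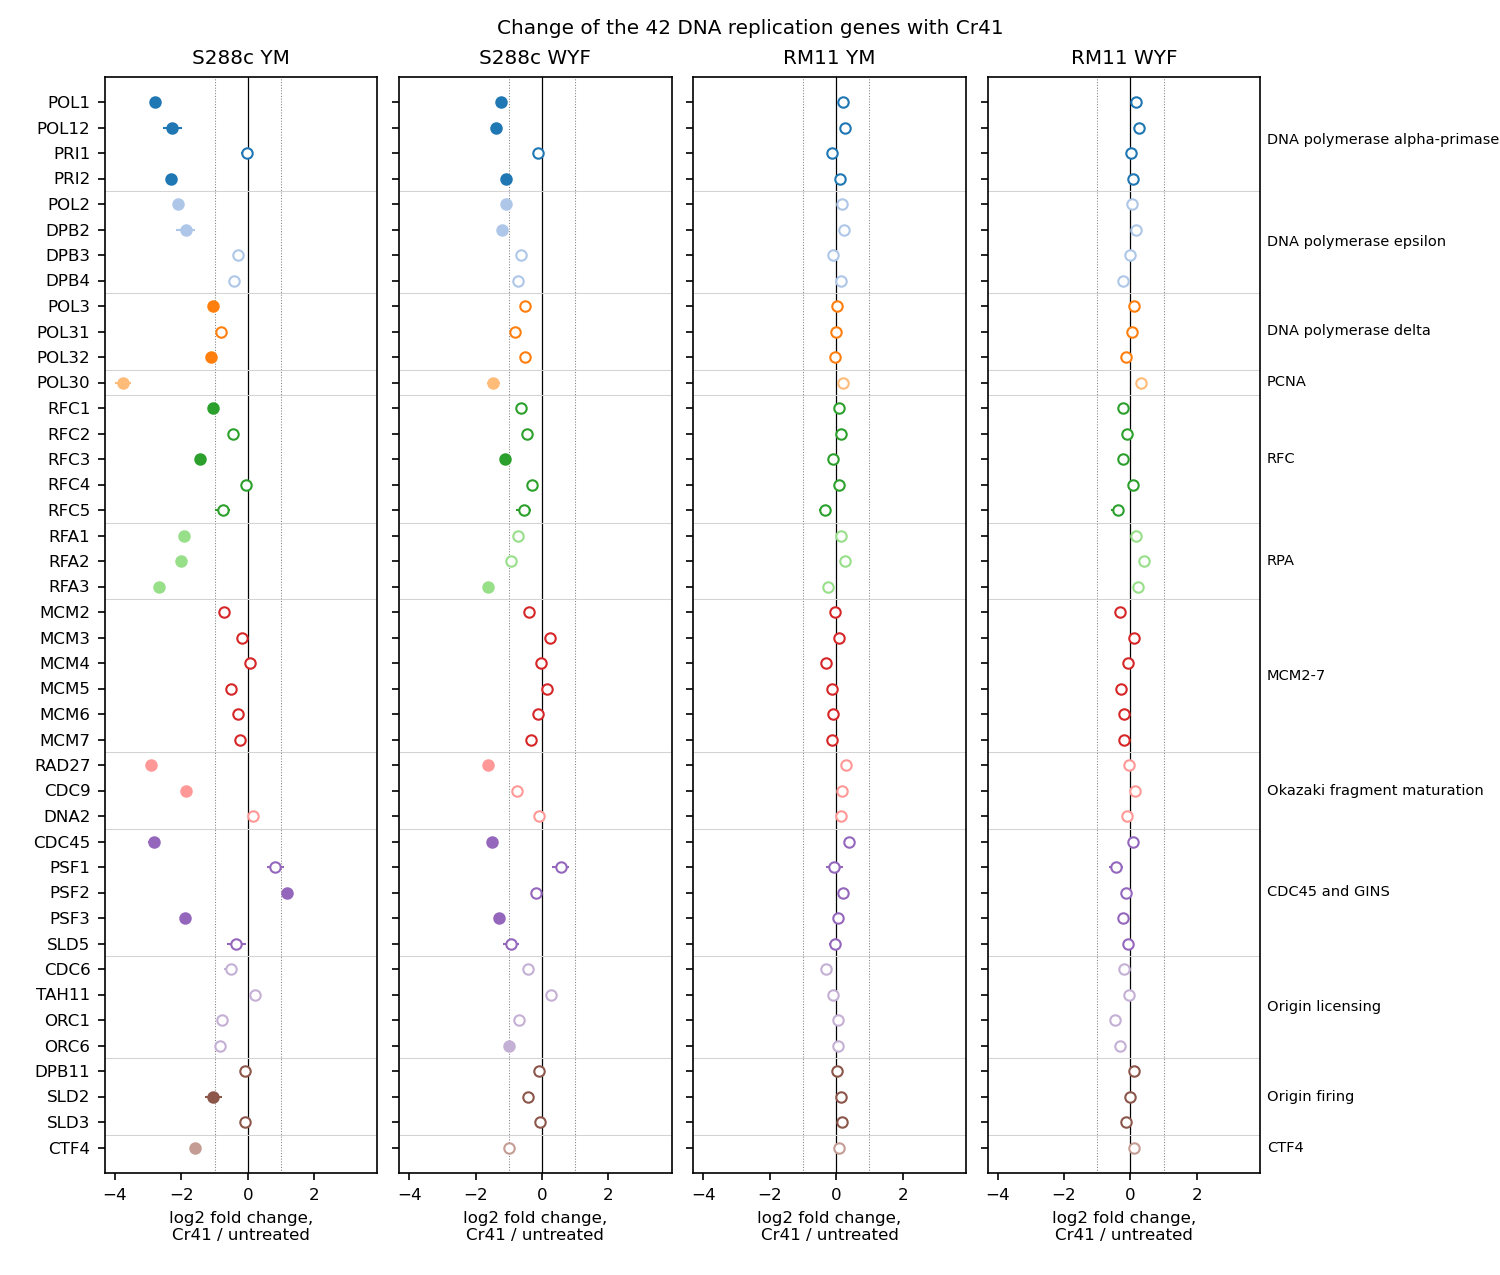
The log2 fold change (Cr41 over untreated, x axis) of each of the 42 members, grouped by complex and coloured by it, in the 4 strain and medium combinations. Points are edgeR estimates from 5 against 5 libraries, bars are standard errors, filled points are called and dotted lines mark the fold threshold. In S288c 19 members fell in YM and 12 in WYF, and no point is filled in RM11.

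PCNA, the sliding clamp that holds the polymerases on DNA, had the largest change. POL30 was at 21.6, 19.3, 20.2, 17.5 and 19.6 CPM in the untreated libraries and at 2.32, 1.30, 1.12, 0.641 and 1.68 CPM with Cr41. The groups lay far apart, and the lowest untreated library was several times above the highest treated one. POL30 fell 13.5-fold (log2 change -3.75 ± 0.25 SE, adjusted p = 7.2e-08, edgeR). The treated libraries held only 3 to 13 POL30 counts each, against 101 to 144 untreated, so that counting error is a large share of the spread of the treated values. RFC, the clamp loader, was mixed: RFC3 and RFC1 fell and the other 3 subunits were not called. RFC3 was at 143, 149, 142, 140.4 and 154 CPM untreated and at 56.3, 55.8, 56.9, 51.7 and 47.9 CPM with Cr41, again without overlap. Its fall was 2.69-fold (log2 change -1.43 ± 0.07, adjusted p = 5.0e-09). RFC1, the large subunit, had a log2 change of -1.05, RFC5 -0.76, RFC2 -0.44 and RFC4 -0.05.

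Of the polymerases, alpha-primase had the largest falls. POL1, its catalytic polymerase subunit, was at 159.5, 168, 173, 167 and 179 CPM untreated and at 28.5, 32.2, 19.2, 21.6 and 19.3 CPM with Cr41. These groups did not overlap, and the fall was 6.93-fold (log2 change -2.79 ± 0.14, adjusted p = 7.6e-09). Its partner POL12 and the large primase subunit PRI2 fell with it, by 4.83-fold and 5.01-fold. PRI1, the catalytic primase subunit, did not follow them: it was at 8.92 to 13.2 CPM untreated and at 8.75 to 12.5 CPM with Cr41, ranges that overlap (log2 change -0.04 ± 0.18, adjusted p = 0.85). In polymerase epsilon the catalytic subunit and its essential partner fell and the 2 small histone-fold subunits were not called. POL2 was at 172, 157, 151, 155 and 156 CPM untreated and at 44.0, 38.1, 37.8, 28.8 and 34.2 CPM with Cr41. This was a fall of 4.26-fold without overlap of the groups (log2 change -2.09 ± 0.11, adjusted p = 7.3e-09). DPB2 fell 3.67-fold, while DPB3 and DPB4 had log2 changes of -0.29 and -0.42. Polymerase delta changed less. POL32, a non-essential subunit that binds PCNA, was at 79.9, 82.2, 78.8, 76.5 and 78.9 CPM untreated and at 38.5, 40.8, 36.3, 29.5 and 37.6 CPM with Cr41. It fell 2.15-fold without overlap (log2 change -1.10 ± 0.09, adjusted p = 4.9e-07). The catalytic subunit POL3 fell by 1.04 on the log2 scale, a call lost at -0.99 when Cr41 replicate 4 was left out, and POL31 was at -0.81 and was not called.

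All 3 RPA genes fell. RFA3, the smallest subunit, was at 77.5, 84.4, 80.8, 91.7 and 83.0 CPM untreated and at 12.8, 10.4, 12.5, 14.3 and 15.1 CPM with Cr41. The groups did not overlap, and the fall was 6.38-fold (log2 change -2.67 ± 0.09, adjusted p = 2.6e-10). RFA1, the large DNA-binding subunit, was at 50.7, 48.8, 53.4, 49.9 and 48.3 CPM untreated and at 13.7, 16.0, 11.8, 13.2 and 10.9 CPM with Cr41. Its fall was 3.78-fold without overlap (log2 change -1.92 ± 0.11, adjusted p = 1.6e-08), and RFA2 fell 4.05-fold. Of the Okazaki fragment enzymes, RAD27, the flap nuclease, was at 125, 118, 131, 107 and 136 CPM untreated and at 16.4, 15.8, 18.2, 17.1 and 12.4 CPM with Cr41. The groups did not overlap, and RAD27 fell 7.62-fold (log2 change -2.93 ± 0.10, adjusted p = 3.4e-10). CDC9, the DNA ligase, fell 3.60-fold. DNA2, the nuclease and helicase that cuts long flaps, had overlapping groups and a log2 change of 0.15 ± 0.07 (adjusted p = 0.067).

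The helicase genes went different ways. CDC45 was at 58.7, 55.0, 58.5, 54.8 and 52.7 CPM untreated and at 10.7, 10.05, 5.91, 6.62 and 5.46 CPM with Cr41. It fell 7.11-fold without overlap (log2 change -2.83 ± 0.18, adjusted p = 4.6e-08). Within GINS, the 4-subunit partner of Cdc45, PSF3 fell 3.68-fold and PSF2 rose. PSF2, which is named here after its values were seen, was at 93.5, 73.3, 75.1, 72.7 and 92.5 CPM untreated and at 151, 206, 214, 175 and 169.7 CPM with Cr41. All treated libraries were above all untreated ones, a rise of 2.27-fold (log2 change 1.18 ± 0.11, adjusted p = 1.7e-06). PSF1 had a log2 change of 0.83 ± 0.25 (adjusted p = 0.012) and SLD5 of -0.35 ± 0.29 (adjusted p = 0.29), with overlapping groups in both. The 6 MCM genes, which encode the ring of the helicase, lay between -0.71 and 0.08 on the log2 scale and none was called, although 3 of them passed the adjusted p alone. MCM2 was the lowest of them, at 110.3, 95.1, 114, 120.0 and 119.6 CPM untreated and at 66.6, 72.6, 70.4, 62.6 and 65.3 CPM with Cr41. Its groups did not overlap, with a 1.64-fold difference (log2 change -0.71 ± 0.08, adjusted p = 7.9e-06) that is under the fold threshold.

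Of the 7 licensing and firing genes, SLD2 alone was called. ORC6, a subunit of the origin recognition complex, was at 35.0, 25.1, 23.7, 28.7 and 29.5 CPM untreated and at 16.6, 18.2, 13.6, 16.4 and 13.2 CPM with Cr41. The groups did not overlap, and the log2 change of -0.85 ± 0.13 (adjusted p = 0.00013) was not called. ORC1, the largest subunit, was at -0.79, CDC6, the licensing ATPase, at -0.52 and TAH11, the yeast Cdt1, at 0.20. Of the firing factors, SLD2 fell and SLD3 and DPB11 were at -0.07 and -0.09. SLD2 was at 35.3, 40.2, 42.3, 35.6 and 38.8 CPM untreated and at 29.9, 19.7, 19.2, 10.04 and 13.0 CPM with Cr41. The treated libraries of SLD2 spread widely, and its fall of 2.05-fold (log2 change -1.03 ± 0.24, adjusted p = 0.0026) was no longer called when untreated replicate 3, Cr41 replicate 4 or Cr41 replicate 5 was left out, with log2 changes between -0.99 and -0.88. CTF4, which links the helicase to polymerase alpha, was at 95.6, 86.4, 97.2, 85.6 and 89.8 CPM untreated and at 33.3, 29.2, 32.9, 27.8 and 27.3 CPM with Cr41. It fell 2.99-fold without overlap (log2 change -1.58 ± 0.08, adjusted p = 9.5e-09).

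**Figure D2:**
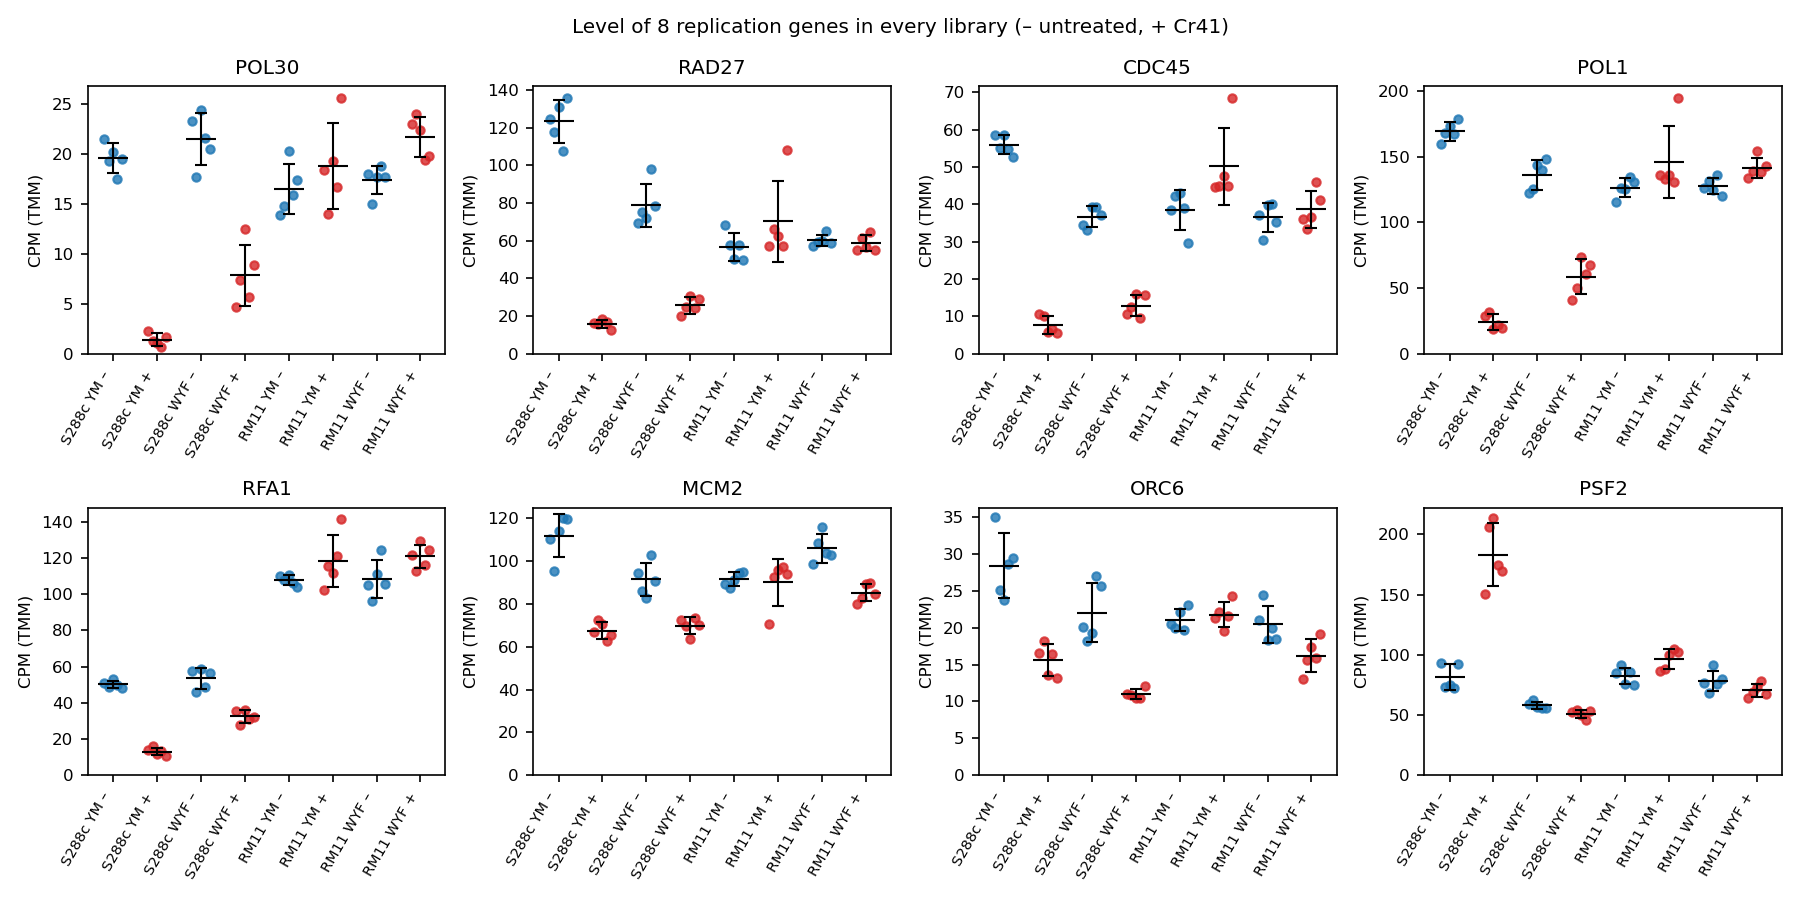
CPM (TMM) of 8 members in every library of the 8 groups. Each point is 1 library, and the black marks are the mean and SD of 5. In S288c the POL30, RAD27, CDC45, POL1 and RFA1 libraries with Cr41 lie below the untreated ones in both media, and the PSF2 libraries with Cr41 in YM stand at 151 to 214 CPM.

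With aromatic amino acids in the medium, largely the same fork genes were lower in S288c, by smaller factors. In WYF 12 of the 42 members fell with Cr41, against 5.36% of all 5581 genes tested, and none was called higher. At the adjusted p alone 30 members were lower, against 25.4% of all genes, and 2 higher (MCM3 at 0.24 and TAH11 at 0.26), against 22.7%. The median log2 change was -0.63 over the members and -0.01 over all genes. In 28 members all treated libraries were below all untreated ones (19.6% of all genes), and in 2 they were above (16.9%). Of the 21 members called in either medium, 11 were called in both, 9 in YM alone and ORC6 in WYF alone. Across the 42 members the log2 changes in YM and WYF, which share no library, had a Pearson correlation of 0.875 and a Spearman correlation of 0.895, given as a description since members of a complex are not independent.

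RFA3 had the largest fall in WYF. It was at 80.4, 81.6, 78.9, 48.5 and 71.6 CPM untreated and at 26.7, 22.4, 23.5, 20.5 and 22.1 CPM with Cr41. The groups did not overlap, and the fall was 3.12-fold (log2 change -1.64 ± 0.14, adjusted p = 4.9e-07). RAD27 was at 69.6, 75.3, 72.3, 98.3 and 78.6 CPM untreated and at 19.8, 24.7, 30.8, 24.1 and 28.8 CPM with Cr41. This was a fall of 3.08-fold without overlap (log2 change -1.62 ± 0.12, adjusted p = 1.7e-07). CDC45 was at 34.6, 33.2, 39.2, 39.4 and 37.3 CPM untreated and at 10.8, 12.5, 16.0, 9.55 and 15.8 CPM with Cr41. It fell 2.84-fold without overlap (log2 change -1.51 ± 0.14, adjusted p = 9.2e-07). For POL30 the values were 23.4, 17.8, 24.5, 21.6 and 20.5 CPM untreated and 4.74, 7.37, 12.5, 5.73 and 8.93 CPM with Cr41. The treated values stayed below the untreated ones, with a fall of 2.77-fold (log2 change -1.47 ± 0.20, adjusted p = 4.7e-05). POL1 was at 122, 125, 144, 140.2 and 149 CPM untreated and at 40.7, 49.96, 74.0, 60.7 and 67.3 CPM with Cr41. Its groups did not overlap and it fell 2.33-fold (log2 change -1.22 ± 0.14, adjusted p = 6.2e-06).

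The other falls in WYF were POL12 (2.63-fold), PSF3 (2.43-fold), DPB2 (2.29-fold), RFC3 (2.14-fold), PRI2 (2.13-fold), POL2 (2.11-fold) and ORC6 (2.01-fold). ORC6 lay at the fold threshold. It was at 20.1, 18.2, 19.2, 27.0 and 25.6 CPM untreated and at 11.0, 10.9, 10.5, 10.5 and 12.1 CPM with Cr41, without overlap, and its call (log2 change -1.01 ± 0.13, adjusted p = 3.5e-05) was lost, at -0.998 to -0.92, when untreated replicate 4 or 5 or Cr41 replicate 2, 3 or 4 was left out, and at -0.99 with DESeq2. CTF4 was on the other side of the threshold at -0.99, and RFA2 and SLD5 were at -0.94 each. POL3, POL32, RFC1, RFA1, CDC9 and SLD2 fell in YM and were between -0.76 and -0.44 in WYF, where they were not called. PSF2 did not rise in WYF: it was at 59.6, 62.7, 56.3, 55.9 and 55.7 CPM untreated and at 52.8, 54.3, 50.01, 45.6 and 53.0 CPM with Cr41, all treated libraries below all untreated ones (log2 change -0.18 ± 0.07, adjusted p = 0.046). The MCM genes lay between -0.39 and 0.24 and again none was called, while MCM2, MCM7 and MCM3 passed the adjusted p alone.

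In RM11 no replication gene was called with Cr41 in either medium, where few of all genes were called. In YM 0 of the 42 members were called by edgeR, against 1.66% of all 5496 genes tested in either direction, and DESeq2 and limma also called 0. At an unadjusted p under 0.05 there were 8 members, and 2 passed the adjusted p, MCM4 at -0.30 and RFA3 at -0.26, against 15.3% of all genes. The log2 changes lay between -0.34 and 0.38 with a median of 0.06, and the groups overlapped in 40 of the 42 members, with 1 member lower, against 7.33% of all genes, and 1 higher, against 7.64%. In WYF edgeR, DESeq2 and limma again called 0 members, against 1.65% of all 5469 genes by edgeR, with 17 at an unadjusted p under 0.05. There 15 members passed the adjusted p, 10 lower and 5 higher, a share near the 35.6% of all genes, with log2 changes between -0.47 and 0.40 and a median of -0.04. The largest were ORC1 at -0.47 and RFA2 at 0.40, and the groups overlapped for 36 of the 42 members. Of the others 5 were lower, a share near the 11.0% of all genes, namely RFC1, MCM2, MCM5, MCM6 and MCM7 at -0.31 to -0.19, and POL30 was higher, against 12.7%. Counts at an unadjusted p, here and below, come without the share of all genes at that p. They therefore show nothing particular to the members or lists.

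POL30 in RM11 was at 13.9, 14.8, 20.3, 16.0 and 17.4 CPM untreated in YM and at 18.4, 14.02, 19.3, 16.7 and 25.6 CPM with Cr41. These groups overlapped (log2 change 0.21 ± 0.16, adjusted p = 0.42). In WYF it was at 18.0, 15.0, 17.7, 18.8 and 17.7 CPM untreated and at 23.1, 24.0, 22.4, 19.4 and 19.9 CPM with Cr41, with every treated library higher and a log2 change of 0.32 ± 0.09 (adjusted p = 0.013). RAD27 in YM was at 68.3, 57.6, 50.3, 57.6 and 49.9 CPM untreated and at 57.4, 66.3, 62.4, 57.1 and 108 CPM with Cr41. Only replicate 5 was outside the untreated range. CDC45 was at 38.5, 42.3, 43.1, 39.1 and 29.7 CPM untreated and at 44.7, 45.0, 47.7, 45.0 and 68.5 CPM with Cr41, without overlap (log2 change 0.38 ± 0.13, adjusted p = 0.075). Without the Cr41 library of replicate 5 the log2 change in YM was 0.07 for POL30, 0.08 for RAD27 (0.31 with it) and 0.23 for CDC45. Without it, the median log2 change of the members in RM11 in YM was 0.00, 6 members passed the adjusted p and 0 were called.

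**Figure D3:**
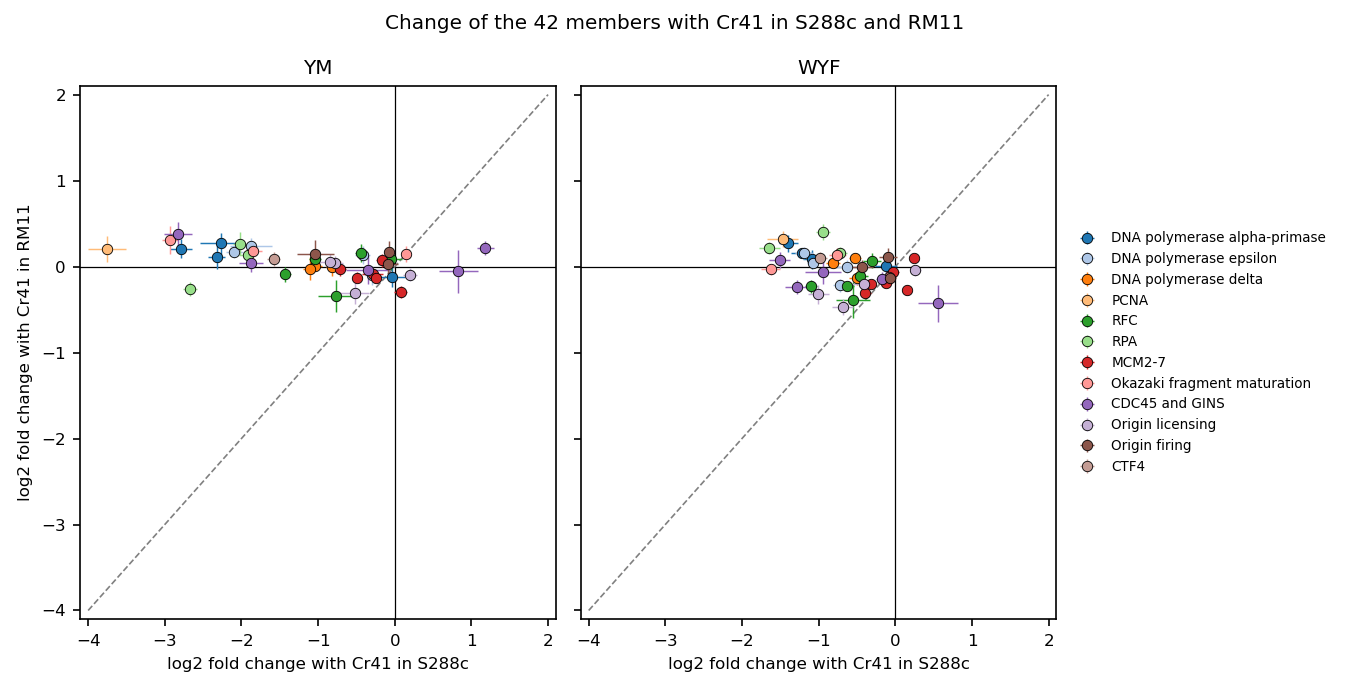
The log2 fold change with Cr41 of each of the 42 members in S288c (x axis) and RM11 (y axis), in YM and WYF, coloured by complex, with standard errors as bars. The dashed line marks equal change. In RM11 the points stay between -0.47 and 0.40, whatever their position between -3.75 and 1.18 in S288c.

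The difference between the strains in their change with Cr41 was tested as an interaction in the 20 libraries of each medium. In YM it was called for 19 members, all more negative in S288c, against 8.21% of all 5795 genes tested for that direction, and these were the 19 members that fell in S288c. In WYF it was called for 12 members, all more negative in S288c, against 5.08% of all 5669 genes, and all 12 of them were also called in YM. Of these 12 interactions, 10 were in members called with Cr41 in S288c in WYF. The largest in YM were POL30 at -3.96 ± 0.28 (adjusted p = 1.7e-10), RAD27 at -3.24 ± 0.22 (6.7e-11), CDC45 at -3.22 ± 0.22 (9.1e-11) and POL1 at -3.01 ± 0.18 (1.1e-11). In WYF they were RFA3 at -1.84 ± 0.16 (7.5e-09) and POL30 at -1.78 ± 0.22 (1.1e-06). Without the Cr41 library of RM11 replicate 5 in YM, 18 interactions were called in YM: POL32 at -0.91 and SLD2 at -0.95 were no longer called and PSF2, at 0.96 with all libraries, was called at 1.02. Leaving out replicate 4 or 5 of both strains put POL3 (-1.06) at -0.97. MCM2, an MCM gene, had an interaction of -0.69 ± 0.12 (adjusted p = 4.1e-05) in YM and -0.07 ± 0.09 (adjusted p = 0.57) in WYF, neither called.

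In untreated YM cultures 1 member was called lower in S288c than in RM11, against 8.18% of all genes tested, and 1 was called higher, against 7.30%. RFA1 was at 48.3 to 53.4 CPM in S288c and at 110.1, 108, 111, 106 and 104 CPM in RM11, a log2 difference of -1.11 ± 0.08 (S288c over RM11, adjusted p = 3.1e-10) with no overlap. RAD27 was the reverse, at 107 to 136 CPM in S288c and 49.9 to 68.3 CPM in RM11 (log2 difference 1.11 ± 0.14, adjusted p = 9.2e-07). TAH11, at 44.1 to 58.9 CPM in S288c and 83.2 to 92.3 CPM in RM11, was the third largest difference and was not called (-0.78 ± 0.08, adjusted p = 2.6e-08). In untreated WYF cultures only RFA1 was called, lower in S288c, against 4.85% of all genes. Its call there (-1.02 ± 0.08, adjusted p = 4.9e-10) was lost with DESeq2, RLE scaling and limma. It was also lost without replicate 4, at -0.93. RAD27 was not called in untreated WYF cultures. Since RM11 reads were counted on S288c transcripts, sequence differences between the strains can change RM11 counts of single genes, and their part in these differences was not tested.

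With Cr41 in YM 14 members were called lower in S288c than in RM11, against 12.7% of all genes for that direction. In WYF 11 members were called lower in S288c, against 9.42% of all genes. POL30 in YM was at 0.641 to 2.32 CPM in S288c and 14.02 to 25.6 CPM in RM11, with a log2 difference of -3.70 ± 0.22 (adjusted p = 2.7e-12). RFA1 was at 10.9 to 16.0 CPM in S288c and at 103, 116, 112, 121 and 141 CPM in RM11, a difference of -3.17 ± 0.10 (adjusted p = 2.6e-17) that includes the one present before treatment. In WYF RFA1 had the largest difference, at -1.89 ± 0.09 (adjusted p = 2.4e-14). Without the Cr41 library of RM11 replicate 5 the count in YM was again 14.

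The media were compared within each strain, and each such value carries the lane as well. In untreated S288c edgeR called 0 members between WYF and YM, against 4.80% of all genes, with 19 at an unadjusted p under 0.05 and 0 called by DESeq2 or limma. In S288c with Cr41, 3 members were called higher in WYF, against 5.18% of all genes, and PSF2 was called lower, against 9.84%. POL30 was at 0.641 to 2.32 CPM in YM and at 4.74 to 12.5 CPM in WYF (log2 difference 2.41 ± 0.27, adjusted p = 1.2e-07). The others were RFA1 (1.27 ± 0.11, adjusted p = 1.4e-09) and POL1 (1.24 ± 0.15, adjusted p = 4.2e-07). PSF2 was at 151 to 214 CPM in YM and at 45.6 to 54.3 CPM in WYF (-1.86 ± 0.10, adjusted p = 6.5e-13). In RM11 0 members were called between media in untreated cells, against 1.97% of all genes, and 0 with Cr41, against 1.88%, by edgeR, DESeq2 and limma, with 6 and 14 members at an unadjusted p under 0.05. Without RM11 replicate 5 with Cr41 in YM, 0 were called with Cr41 and 12 in place of 13 passed the adjusted p. The counts between media at an unadjusted or adjusted p alone have no share of all genes beside them. Nothing particular to the members can be read from them.

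Whether the change with Cr41 itself differed between media was tested as an interaction, in which each change lies within a lane. In S288c it was called more negative in YM for 10 members, against 2.47% of all 5754 genes tested, and more positive for 1, against 6.53%. The 10 were POL1, PRI2, POL2, POL30, RFA1, RFA2, RFA3, RAD27, CDC9 and CDC45. The largest was POL30 at -2.29 ± 0.33 (adjusted p = 1.1e-05), followed by POL1 at -1.57 ± 0.20 (2.4e-06), CDC45 at -1.32 ± 0.22 (6.4e-05) and RAD27 at -1.30 ± 0.17 (2.7e-06). PSF2 was the positive one, at 1.37 ± 0.13 (5.9e-08). For ORC6 the interaction was 0.16 ± 0.19 (adjusted p = 0.53), so that its call in WYF alone was not a detectable difference between the media. Leaving out replicate 4 or 5 put POL2 (-1.01) at -0.94 or -0.999, without replicate 1 RFA2 (-1.07) was at -0.95 and without replicate 4 RFA3 (-1.02) was at -0.94. Other members gained a call: POL12 (-0.87) without replicate 1 or 2, between -1.15 and -1.10, and DPB2 (-0.68) without replicate 1, at -1.20. In RM11 edgeR called 0 members, against 0.739% of all genes, with 9 at an unadjusted p under 0.05 and 0 called by DESeq2 or limma. Without RM11 replicate 5 with Cr41 in YM it also called 0, and 5 in place of 4 passed the adjusted p. These counts by p alone again have no share of all genes beside them.

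Of 25 other genes of the fork and the origin, 9 fell in S288c in YM, against 8.82% of all genes tested, and 7 in WYF, against 5.36%. None rose, against 11.0% of all genes in YM. The 9 that fell in YM were the fork protection genes MRC1, TOF1 and CSM3, the clamp loader gene CTF18, the RNase H2 genes RNH201 and RNH203, TOP2, RRM3 and RLF2, with log2 changes between -2.08 and -1.10. The 4 other ORC genes lay between -0.24 and 0.25 and MCM10 at -0.07, and DBF4 and CDC7, which encode the kinase that triggers origins, were at -0.69 and -0.72. In RM11 edgeR called 0 of the 25 in either medium, against 1.66% of all genes in YM and 1.65% in WYF. At an unadjusted p under 0.05 there were 5 and 7, where 15.3% and 35.6% of all genes passed even the adjusted p.

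Cell cycle stage markers were measured beside the members, because budding yeast transcribes them at set stages. All 18 G1/S markers fell in S288c in both media, with median log2 changes of -2.69 in YM and -1.84 in WYF, and RNR1, the large subunit of ribonucleotide reductase, changed by -4.04 in YM. The summed level of the 18 was 2135 to 2298 CPM untreated and 253 to 468 CPM with Cr41 in YM, 1940 to 2234 and 480 to 711 CPM in WYF. In RM11 it was 1543 to 1680 CPM untreated and 1838 to 2379 CPM with Cr41 in YM, and 1662 to 2032 and 1922 to 2191 CPM in WYF, and edgeR called none of the 18 there, with 9 in YM and 6 in WYF at an unadjusted p under 0.05. Of the 8 S-phase histone genes 7 fell in S288c in YM and 8 in WYF, and edgeR called none in RM11, with 3 and 5 at an unadjusted p under 0.05. The 12 G2/M markers differed between the media: in S288c in YM 2 fell and CDC20 rose, by 9.75-fold, with a summed level of 1016 to 1232 CPM untreated and 1329 to 1373 CPM with Cr41. In WYF 8 of the 12 fell and the sum went from 1033 to 1202 CPM down to 291 to 443 CPM. In RM11 the G2/M sum was also lower with Cr41, at 1362 to 1538 and 1021 to 1107 CPM in YM, where edgeR called none of the 12 and all 12 had an unadjusted p under 0.05. In WYF the RM11 sum was 1395 to 1636 CPM untreated and 931 to 1060 CPM with Cr41. None of the 12 M/G1 markers and none of 6 reference genes was called by edgeR in any of the 4 comparisons, with 8 to 10 and 1 to 4 of them at an unadjusted p under 0.05. The M/G1 sum nevertheless moved without overlap in S288c, from 10067 to 11170 CPM untreated to 7825 to 9038 CPM with Cr41 in YM and, in the other direction, from 6877 to 9714 CPM to 10245 to 11213 CPM in WYF. In RM11 it was also lower with Cr41, at 4785 to 5310 and 3163 to 4540 CPM in YM and 5340 to 5837 and 4504 to 4853 CPM in WYF. The reference sum was higher with Cr41 in S288c without overlap, at 1440 to 1590 and 1818 to 2271 CPM in YM and 1371 to 1730 and 1837 to 1996 CPM in WYF. No list had a gene at 0 in all libraries. For the marker and reference lists, too, counts at an unadjusted p have no share of all genes beside them. The part of the cell cycle distribution in the changes of the replication genes was not tested.

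**Figure D4:**
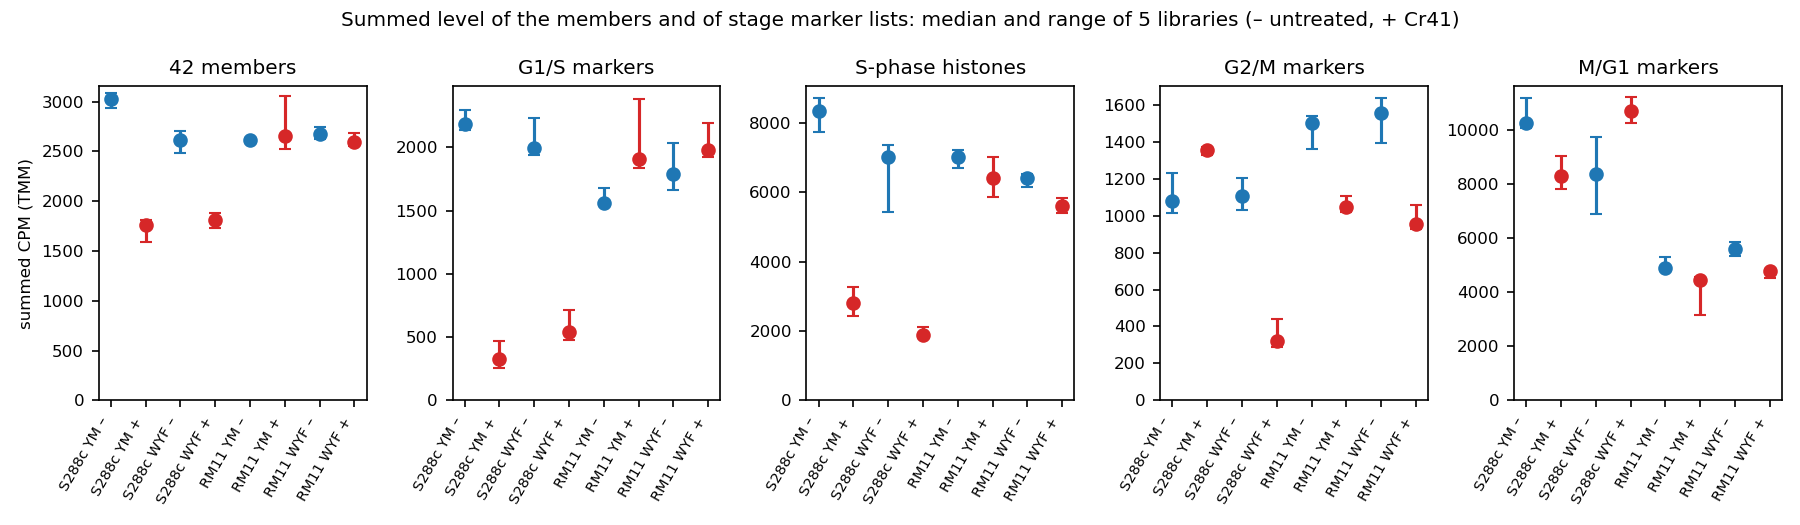
Summed CPM of the 42 members and of 4 lists of cell cycle stage markers in the 8 groups (blue and minus for untreated, red and plus for Cr41). Points are medians and bars the range of 5 libraries, and each panel has its own axis from 0. In S288c with Cr41 the sums of the members and the G1/S markers are low in both media. The G2/M sum is low in WYF, at 291 to 443 CPM, and not in YM, at 1329 to 1373 CPM. The YM sum includes CDC20, which was called higher, beside markers that fell.

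Of the 19 members called lower in S288c in YM, 16 had the MCB core in the window, and of the 23 others 3 had it, namely POL31, RFC4 and CDC6. The 3 that fell without it were RFC1, RFC3 and RFA3. Only exact matches to the core were counted, so near matches in these windows were left out. The median log2 change in YM was -1.88 for the 19 members with the MCB core and -0.29 for the 23 without, and in WYF it was -0.99 and -0.32. With 2 copies the median in YM was -2.53, between -2.93 for RAD27 and -1.92 for RFA1. With 1 copy it was -1.58, between -3.75 for POL30 and -0.05 for RFC4, a range that spans that of 2 copies. In WYF the median was -1.31 with 2 copies, between -1.62 and -0.73. With 1 copy it was -0.81 there, between -1.47 and -0.30. Within complexes the letters followed the division by calls of a fall in YM in alpha-primase, where PRI1 alone lacked them, in polymerase epsilon, where DPB3 and DPB4 lacked them, and in GINS, where PSF3 alone had them. They did not in RFC, where only RFC4 had them, or in polymerase delta, where all 3 genes had them and POL31 was not called. In WYF the division in epsilon was narrower, with DPB3 at -0.63 and DPB4 at -0.72 against POL2 at -1.08 and DPB2 at -1.19. POL3 and POL32, with the letters, were at -0.53 and -0.50 there. Within GINS in WYF, SLD5 was at -0.94, PSF2 at -0.18 and PSF1 at 0.56, against PSF3 at -1.28. No test was made of this relation, since the motif was chosen with the members known to be S-phase genes.

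**Figure D5:**
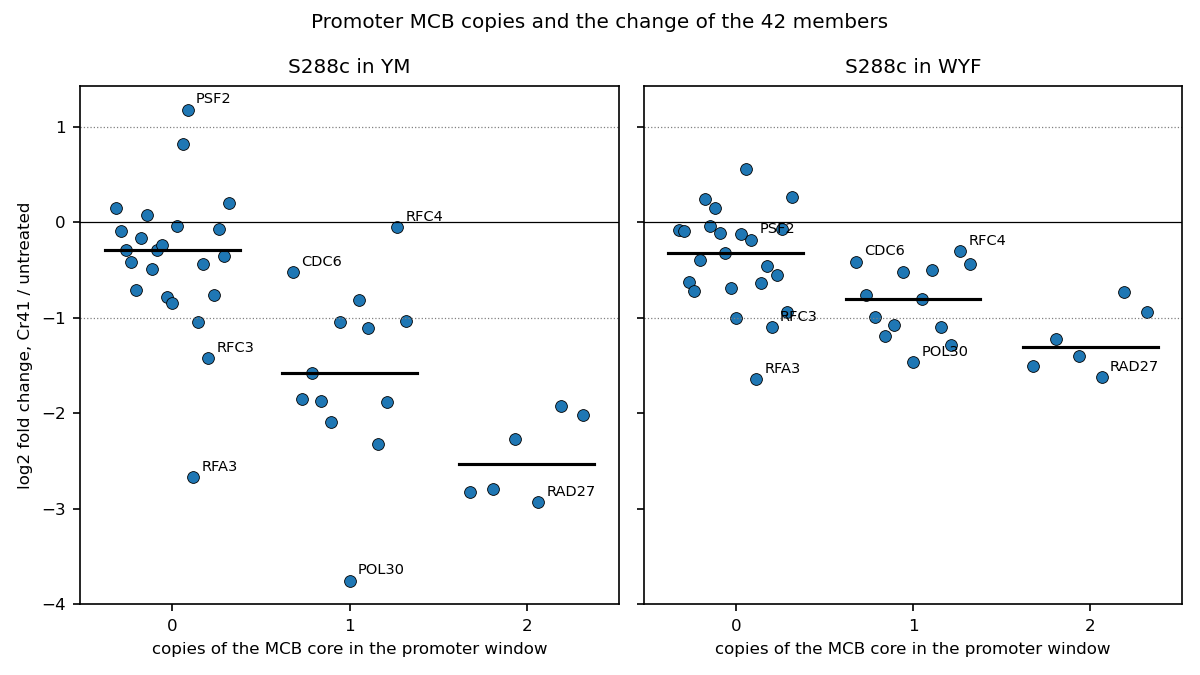
The log2 fold change with Cr41 (y axis) of the 42 members in S288c, by the number of MCB cores in the promoter window (x axis), in YM and WYF. Each point is a gene, spread sideways for display, and the bars are medians. RFA3 and RFC3 were low without an MCB core, while RFC4 and CDC6 had 1 core and stayed above -1.

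Per length, the members spanned a wide range. In TPM, which corrects for transcript length, untreated S288c in YM had RFA3 highest, at 290 ± 20 (SD, n = 5), followed by PSF2 at 124 ± 14, DPB4 at 118 ± 15, RFC3 at 112 ± 4.3 and RFA2 at 102 ± 11. Of these neighbours, only RFA3 was set apart from the next by more than the range of the libraries, at 264 to 321 against 111 to 139 TPM. RFC5 was lowest, at 3.69 ± 0.84 TPM, with PSF1 at 4.02 ± 0.85 and SLD5 at 4.27 ± 0.68, which overlapped with it. With Cr41 the order changed: PSF2 was highest at 255 ± 39 TPM, RFA3 was at 40.5 ± 4.4 TPM and POL30 lowest at 1.40 ± 0.70 TPM, overlapping with RFC5 at 1.99 ± 0.48 TPM. The balance of the primase subunits shifted too in S288c. The log2 ratio of PRI2 to PRI1 TPM within a library was 1.29 to 1.73 untreated and -0.99 to -0.32 with Cr41 in YM. In WYF it was 0.62 to 1.10 and -0.41 to 0.20. In RM11 the ratio was 0.49 to 0.89 and 0.46 to 1.31 in YM, and -0.08 to 0.81 and 0.09 to 0.82 in WYF. PRI2 was called in S288c and PRI1 was not, so the ratio restates their fold changes. These ratios show unequal change of the subunits' RNA and say nothing of their proteins.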

How the data were processed

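The authors quantified 76-base read pairs with Salmon 0.13.1 on S288c transcripts (index build not given in the sources used here) and deposited estimated counts and TPM per transcript, with effective lengths, which were not used as a measurement. Estimated counts were rounded to whole numbers. Genes were filtered by filterByExpr, scaled by TMM and tested by the quasi-likelihood F test of edgeR 4.0.16 in R 4.3.3, with Benjamini-Hochberg adjustment over all genes tested. The deposited TPM values were used for levels per length and, as log2(TPM + 1), in limma 3.58.1, where fold changes of low genes are understated. Cr41 was compared with untreated in fits of 10 libraries, and strains, media and interactions in fits of 20. The standard error is the log2 change divided by the square root of F.

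The members and lists were chosen with earlier results of these data known. By rule, values of every library were given for the member with the largest change in S288c in YM in each role, any member called in RM11 or called in opposite directions (there were none), and the 3 with the largest strain differences in untreated YM, and context lists could give the 2 largest changes of each. PSF2 and the other genes named with values were added after these were seen. Alternatives were DESeq2 1.42.0, RLE scaling, limma, other filters, a replicate block, a single fit of 40 libraries and leaving out each replicate. The fits were tested on simulated data. Intervals and spreads cover these libraries only, with totals of 4224350 to 7866044.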

Additional observations from a re-analysis of the deposited data

Results flagged for a closer look

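Within 5 libraries of a group, 10 of 128 tested sets had an end value whose gap to its neighbour, as a share of the whole range, exceeded Dixon's critical value of 0.71 (7.81%), where chance gives about 1 in 20. Most were in RM11 with Cr41 in YM, where replicate 5 was highest for POL1 (0.920), POL32 (0.874), RAD27 (0.820), CDC45 (0.875), SLD2 (0.766), CTF4 (0.772) and the summed CPM of the members (0.712, at 3061 CPM against 2525 to 2679 CPM). In the same group MCM2 was lowest in replicate 1 (0.830, at 70.5 CPM against 92.5 to 97.0 CPM). The other cases were POL2 in replicate 1 of untreated S288c in YM (0.720) and RFA3 in replicate 5 of untreated RM11 in YM (0.712).

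By edgeR's interaction test, Cr41 went with unlike changes in S288c and RM11. In YM the values on the log2 scale (S288c change minus RM11 change) were -3.96 for POL30, -3.24 for RAD27, -3.22 for CDC45, -3.01 for POL1, -2.42 for RFA3, -2.27 for POL2, -2.06 for RFA1, -1.67 for CTF4, -1.34 for RFC3, -1.19 for SLD2 and -1.09 for POL32. In WYF they were -1.84 for RFA3, -1.78 for POL30, -1.58 for RAD27, -1.58 for CDC45, -1.37 for POL1, -1.11 for POL2 and -1.08 for CTF4. Between the media in S288c the change in YM minus that in WYF was -2.29 for POL30, -1.57 for POL1, -1.32 for CDC45, -1.30 for RAD27, -1.19 for RFA1, -1.02 for RFA3, -1.01 for POL2 and 1.37 for PSF2.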

How the results depend on the processing

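Counts of called members under the alternatives stayed within 1.5 times of those reported, apart from the following. Without the fold threshold the counts with Cr41 were 32 in S288c in YM, 32 in WYF, 2 in RM11 in YM and 15 in WYF. Between strains they were 27 in untreated YM, 31 with Cr41 in YM, 19 in untreated WYF and 35 with Cr41 in WYF. Between media they were 15 in untreated S288c, 28 with Cr41, 3 in untreated RM11 and 13 with Cr41. For strain by Cr41 they were 30 in YM and 28 in WYF, and for medium by Cr41 21 in S288c and 4 in RM11. The share of all genes without the fold threshold is given above only for Cr41 against untreated. For the strain, media and interaction comparisons these counts therefore show only the effect of the threshold and nothing particular to the members. With limma 1 member differed between untreated strains in YM, and with DESeq2, RLE scaling and limma 0 did in WYF. Leaving out 1 replicate gave 18 to 20 called members in S288c in YM, 11 to 13 in WYF, 0 in RM11, 0 to 1 between untreated strains in WYF, 10 to 11 with Cr41 in WYF, 4 to 6 between media in S288c with Cr41, and 9 to 12 for medium by Cr41 in S288c. Replicate numbers showed no steady pairing of the libraries, with mean correlations of same-numbered deviations between -0.0701 and 0.0953. In S288c in YM single pairs ranged from -0.351 to 0.548, and 2 of 5 were over 0.1, so the mean does not exclude pairing there. The replicate block gave 20 called members in S288c in YM, 11 in WYF, where ORC6 at -0.99 lost its call, and 0 in RM11. Among the members given library by library, these values, all uncalled and in RM11, reversed: POL32 in YM (0.0072 with limma, -0.17 to 0.067 without 1 replicate), MCM2 in YM (0.017 with limma, -0.056 to 0.051 without 1 replicate), and SLD2 without 1 replicate in YM (-0.065 to 0.23) and WYF (-0.054 to 0.042). Over all 42 members, leaving out RM11 replicate 5 with Cr41 in YM changed the sign of 6 changes with Cr41 in RM11 in YM, 1 strain difference with Cr41 in YM, 1 strain by Cr41 value in YM, 9 media differences in RM11 with Cr41 and 7 medium by Cr41 values in RM11, 0 of them called. DESeq2 moved the median of all genes in S288c in YM to 0.10, with 19 members lower and 1 higher as before. The causes were not tested. POL30 rests on few counts with Cr41, and with at least 10 counts in every library it was not tested there.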
